A study of Homo sapiens with 8 samples.

Results

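The SLC25 genes encode carriers that sit, with few exceptions, in the inner membrane of mitochondria and move small metabolites, nucleotides and cofactors across it. They were described here in Jurkat cells, an established human T-cell acute lymphoblastic leukemia (T-ALL) line, with and without the protein CBAP. The members were the genes whose symbol in the deposited expression table is SLC25A followed by a number. This gave 40 of the 13453 genes in the table, and 38 of them reached the mean level of 1 FPKM required for testing, among 11427 tested genes. FPKM scales sequenced fragments by the length of the exon model and by the number of fragments mapped, so it allows levels of different genes to be compared per length.

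RNA-seq was performed on 8 libraries, 2 for each of 4 kinds of Jurkat cells. Cells transduced with a control shRNA (sh-Ctrl) were compared with cells carrying an shRNA against CBAP (sh-CBAP), and this pair is called the shRNA set. In the CRISPR set, CBAP-knockout cells (CBAP-KO) were compared with knockout cells to which the CBAP gene had been returned (CBAP-reconstituted), so that both kinds of cells in this set carry the CRISPR/Cas9 knockout. By the study's description the returned CBAP was fused to GFP, and the CBAP-KO cells carried GFP without CBAP. The study established its shRNA and knockout cells as selected or single-cell clones, and the question was how loss of CBAP alters the transcriptome in each system. The labels do not state whether the 2 libraries of a condition came from separate cultures, so the p-values measure only the spread between these libraries, which may be technical. In bulk RNA, fewer expressing cells and less RNA per cell cannot be told apart.

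A carrier works by binding its substrate on one face of the membrane and releasing it on the other, often in exchange for a second substrate. Through such exchanges the family links the citrate cycle and ATP synthesis in the matrix with synthesis of lipids, nucleotides and amino acids in the cytosol. SLC25A1, the citrate carrier, exports citrate, from which cytosolic acetyl-CoA for fatty acids and sterols is made.

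TMEM102, the gene that encodes CBAP, was at 4.07 and 4.74 FPKM in sh-Ctrl and at 2.69 and 2.89 FPKM in sh-CBAP cells. All 4 libraries of the CRISPR set list it at 0, also those of CBAP-reconstituted cells, and the targeted gene is therefore no check of their labels. The 10 T cell markers examined (CD3D, CD3E, CD3G, CD247, LCK, CD2, CD7, CD28, ZAP70 and PTCRA) were above 0 in every library, except that PTCRA was listed at 0 in 1 sh-CBAP library. Their summed FPKM was 1677 to 1678 in sh-Ctrl, 1685 to 1843 in sh-CBAP, 1481 to 1491 in CBAP-reconstituted and 1949 to 2391 in CBAP-KO cells. Of the markers of other cells, CD79A of B cells and COL1A1 of fibroblasts were analysed and neither was at 0, and MS4A1, CD14, LYZ, HBB, EPCAM and ALB were not analysed here. CD79A and COL1A1 together summed to 16.0 to 23.8 FPKM in sh-Ctrl, 14.1 to 17.4 in sh-CBAP, 2.86 to 3.23 in CBAP-reconstituted and 10.7 to 11.0 in CBAP-KO cells. The T cell sum was higher in CBAP-KO than in CBAP-reconstituted libraries. Of the 10 T cell markers, 5 were higher and 0 lower in CBAP-KO cells (limma, adjusted p under 0.05). Over all tested genes the shares were 23.9% and 25.9%. In sh-CBAP cells 1 was higher and 2 were lower, against 3.62% and 8.70% of all tested genes. CD28 changed most, from 2.93 and 2.59 FPKM in CBAP-reconstituted to 35.5 and 37.5 FPKM in CBAP-KO cells. It was at 24.1 and 29.2 FPKM in sh-Ctrl and 27.4 and 28.8 FPKM in sh-CBAP cells. The other 2 markers, CD79A and COL1A1, moved in opposite directions in the CRISPR set. CD79A was at 0.732 and 1.09 FPKM in CBAP-reconstituted and 9.60 and 9.91 FPKM in CBAP-KO cells (log2 change 2.50, adjusted p = 0.000515, limma), and COL1A1 was at 2.13 and 2.15 FPKM in CBAP-reconstituted and 1.13 and 1.07 FPKM in CBAP-KO cells (-0.58, adjusted p = 0.00583, limma). The part of these markers in the results below was not tested.

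The promoters of 3 members that passed the test in both sets are shown first, because the values of these genes recur throughout. Each line gives the 250 bases before the RefSeq start site on GRCh38.p14, on the strand of the gene, with motif matches in capitals.
SLC25A1, minus strand of chr22:19178737-19178986: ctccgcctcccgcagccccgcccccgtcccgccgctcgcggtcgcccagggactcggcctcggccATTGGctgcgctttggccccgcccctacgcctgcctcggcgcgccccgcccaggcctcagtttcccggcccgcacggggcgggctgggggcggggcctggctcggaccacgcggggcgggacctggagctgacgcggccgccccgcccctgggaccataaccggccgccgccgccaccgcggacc
SLC25A17, minus strand of chr22:40819347-40819596: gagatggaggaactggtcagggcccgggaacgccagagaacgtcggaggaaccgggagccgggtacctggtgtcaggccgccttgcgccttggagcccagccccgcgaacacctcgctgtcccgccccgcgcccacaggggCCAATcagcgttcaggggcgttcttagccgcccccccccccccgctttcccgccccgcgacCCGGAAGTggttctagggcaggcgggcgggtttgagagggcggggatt
SLC25A24, minus strand of chr1:108200344-108200593: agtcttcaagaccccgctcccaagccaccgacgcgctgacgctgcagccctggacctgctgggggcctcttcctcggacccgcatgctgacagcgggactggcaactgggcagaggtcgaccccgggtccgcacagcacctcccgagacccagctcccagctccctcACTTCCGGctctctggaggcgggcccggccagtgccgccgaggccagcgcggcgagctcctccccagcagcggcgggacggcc

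The letters searched on both strands were CGCATGCG (the core of the NRF1 motif), CACGTG (the E-box bound by MYC and related factors), CCGGAAGT (an ETS core), TCACCCCAC (a site bound by SREBP) and CCAAT (the CCAAT box), and no 2 of these overlapped in the sequences shown. The capitals mark a CCAAT box in SLC25A1, read on the opposite strand, a CCAAT box and an ETS core in SLC25A17, and an ETS core on the opposite strand in SLC25A24. Among the 34 members with a RefSeq promoter, 17 held CCAAT, against 33.0% of all 27305 promoters of this length. CACGTG was found in 6 of the 34 members (6.49% of all promoters), CCGGAAGT in 3 (3.64%), and CGCATGCG and TCACCCCAC in 0 (1.86% and 0.348%). The median GC content of these windows was 67.6% for the members and 58.0% for all promoters. A match describes the letters of a window and does not show that a factor binds there.

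The levels of the family were unequal. Averaged over all libraries, 4 members were at 100 FPKM or more, 24 between 10 and 100, 10 between 1 and 10, and 2 under 1. The highest level per length was that of SLC25A5 (383 FPKM), followed by SLC25A6 (289.6 FPKM), both translocases that exchange ADP for ATP. SLC25A3, the phosphate carrier that supplies ATP synthase, came next at 214 FPKM, and SLC25A39, a glutathione carrier, followed at 101 FPKM. These 4 genes held between 57.9 and 63.5% of the summed FPKM of the family in every library. In each of the 4 conditions, neither of the 2 libraries broke the order SLC25A5, SLC25A6, SLC25A3 and SLC25A39.

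The members under 1 FPKM were SLC25A34 and SLC25A21. SLC25A34 ranged from 0.430 to 1.05 FPKM. SLC25A21, the oxoadipate carrier, was listed at 0 in the 4 shRNA-set libraries, at 0.0459 and 0.0338 FPKM in CBAP-reconstituted and at 0.221 and 0.309 FPKM in CBAP-KO cells. Neither was tested.

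**Figure D1:**
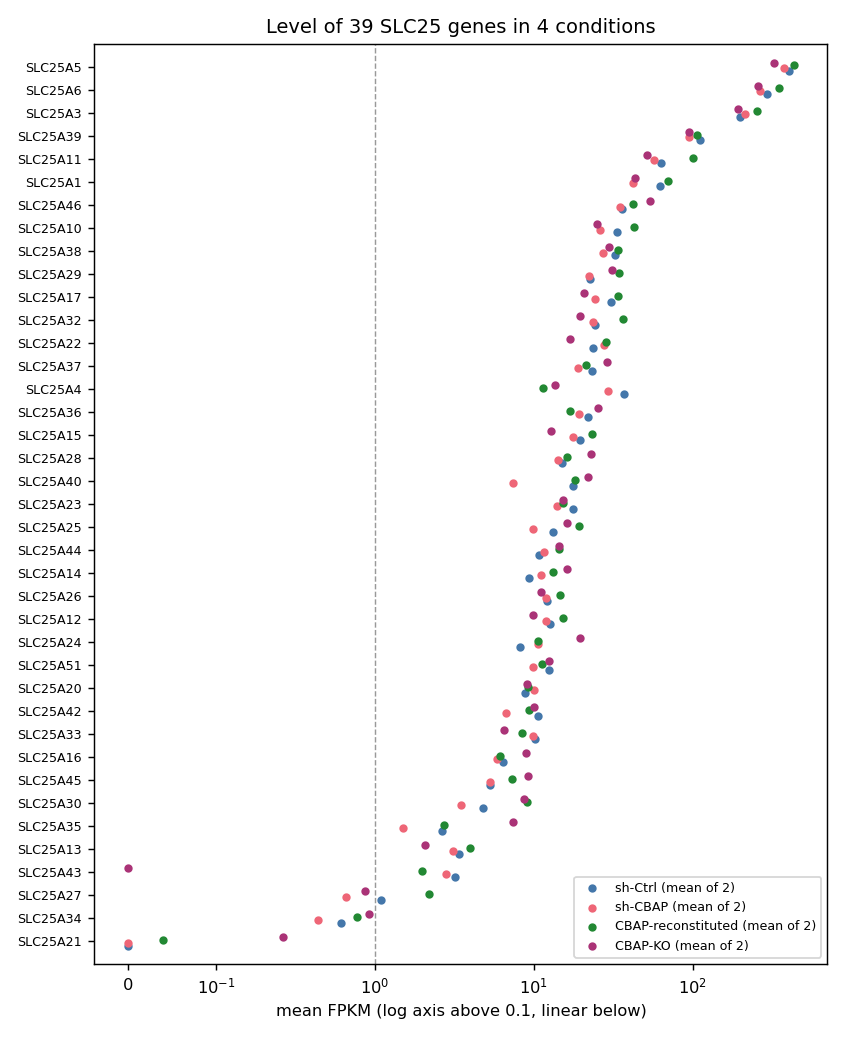
Mean FPKM (log axis above 0.1) of 39 SLC25 genes in each of the 4 conditions, each point being the mean of 2 libraries and the dashed line 1 FPKM. SLC25A5, SLC25A6, SLC25A3 and SLC25A39 sit at the right end, and SLC25A34 and SLC25A21 at the left.

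Summed over the 40 members, the family took a smaller share of the library in CBAP-deficient than in CBAP-expressing cells of the same set. The share of all FPKM was 0.431 and 0.414% in sh-Ctrl and 0.407 and 0.386% in sh-CBAP libraries. In the CRISPR set it was 0.434 and 0.430% in CBAP-reconstituted and 0.388 and 0.373% in CBAP-KO libraries. The groups did not overlap in either set. The summed FPKM of all genes also varied, at 385687 and 389679 in sh-Ctrl and 362082 and 389330 in sh-CBAP libraries. In the CRISPR set this sum was 431057 and 434742 in CBAP-reconstituted and 383898 and 392806 in CBAP-KO libraries. With 2 libraries against 2, the smallest p that a two-sided exact permutation test allows is 0.333, so the share was not tested.

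In the shRNA set, 8 SLC25 genes were lower in sh-CBAP than in sh-Ctrl cells and 1 was higher. Among the lower members were the citrate carrier SLC25A1, the dicarboxylate carrier SLC25A10, the cofactor carriers SLC25A17 and SLC25A42, and SLC25A25, SLC25A30 and SLC25A35. The higher member was SLC25A24, a calcium-regulated carrier that exchanges ATP-Mg for phosphate. The 8 lower calls were 21.1% of the 38 tested members, against 8.70% of all tested genes. The single higher call was 2.63% of the members, against 3.62% of all tested genes. The median log2 change of log2(FPKM + 1) was -0.15 over the members and -0.06 over all tested genes. These calls came from limma across all tested genes at a Benjamini-Hochberg adjusted p under 0.05, with the spread estimated from all 8 libraries. They depended on that estimate. With the 4 shRNA-set libraries alone limma called 0 members in either direction, with 13 members at an unadjusted p under 0.05. Over all tested genes the calls in that fit went from 414 higher and 994 lower to 58 and 17. Leaving out 1 library changed the number of calls over all tested genes too, so the counts that follow are not particular to the members. The number of lower calls was 0 without either CBAP-reconstituted library (13 members at an unadjusted p under 0.05 in both fits), 1 without sh-Ctrl replicate 1, 3 without sh-Ctrl replicate 2, 2 without either CBAP-KO library, 7 without sh-CBAP replicate 1 and 12 without sh-CBAP replicate 2. The higher call, SLC25A24, was kept without sh-CBAP replicate 1 and lost, leaving 0, without any 1 of the other 7 libraries.

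In the CRISPR set, 17 members were lower in CBAP-KO than in CBAP-reconstituted cells and 7 were higher. The lower ones took in carriers of citrate cycle acids (SLC25A1, SLC25A10, SLC25A11), of amino acids (SLC25A12, SLC25A13, SLC25A15, SLC25A22), of nucleotides and phosphate (SLC25A3, SLC25A5, SLC25A6, SLC25A33) and of cofactors (SLC25A17, SLC25A26, SLC25A32), along with SLC25A27 and SLC25A43. SLC25A14, SLC25A16, SLC25A24, SLC25A35, SLC25A36, SLC25A37 and SLC25A46 were higher. The lower calls made up 44.7% of the tested members, against 25.9% of all tested genes. The higher calls made up 18.4%, against 23.9% of all tested genes. The median log2 change was -0.17 over the members and 0.00 over all tested genes. Of these 24 calls, 13 were kept in those of the 9 alternative analyses that tested them and in the 8 fits that left out 1 library, and 11 of the 13 were lower. The number of higher calls was 4 without either sh-Ctrl library, 2 without CBAP-reconstituted replicate 1, and 3 without CBAP-reconstituted replicate 2 or CBAP-KO replicate 1.

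Read side by side, 4 members were called lower in both sets, which was 10.5% of those tested, against 4.03% of all tested genes. SLC25A1, SLC25A10 and SLC25A17 were among them. SLC25A24 was the 1 member called higher in both sets (2.63%, against 1.72% of all tested genes). SLC25A35 was called lower in sh-CBAP and higher in CBAP-KO cells. By the sign of the change alone, 21 members (55.3%) were lower in both deficient conditions, against 33.3% of all tested genes. A further 2 members (5.26%) were higher in both, against 23.4%, and 15 (39.5%) moved in opposite directions, against 42.1%. The sets share no library, but both fits share 1 estimate of the spread. No call was made in either set for 11 members, and the share of all tested genes without a call was not counted.

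**Figure D2:**
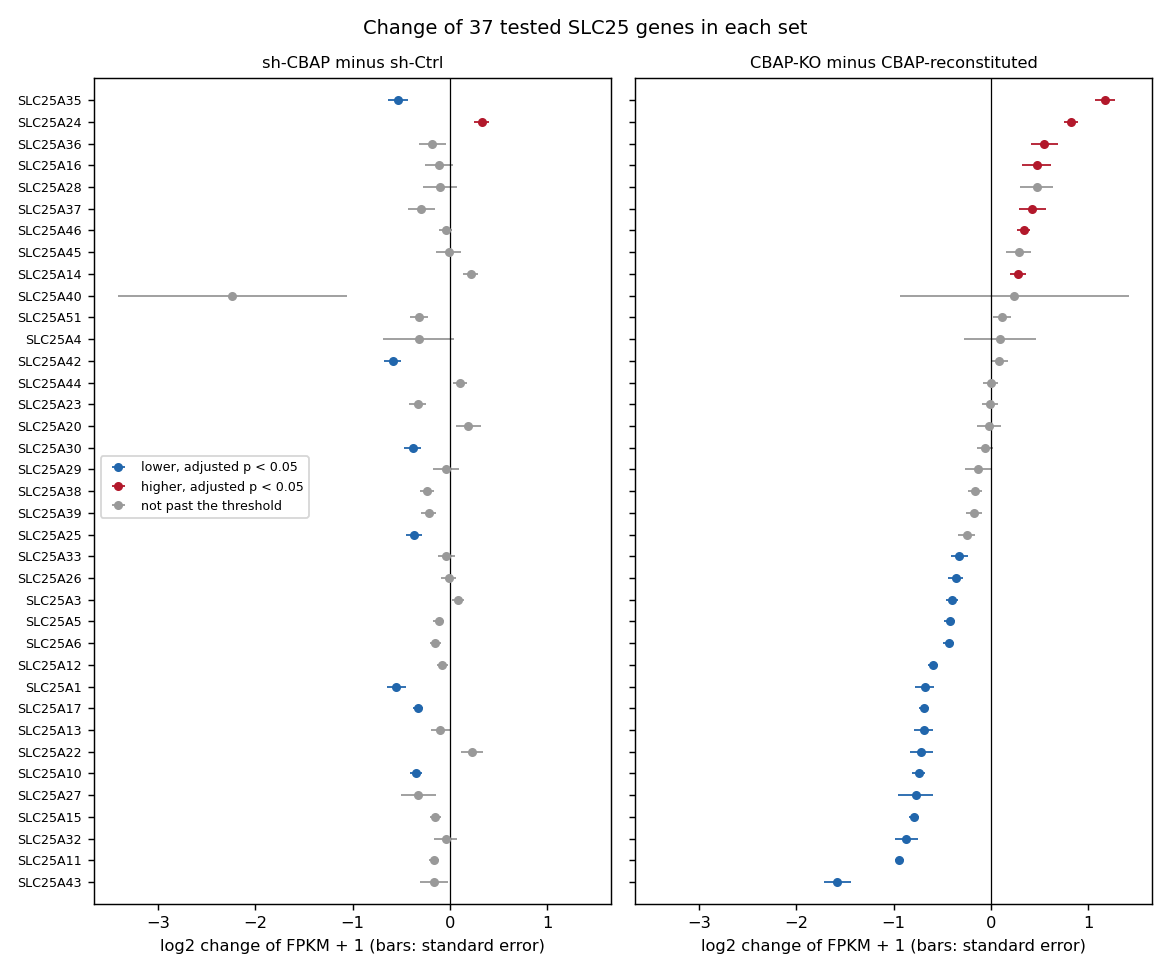
Log2 change of FPKM + 1 for 37 tested SLC25 genes in sh-CBAP against sh-Ctrl (left) and in CBAP-KO against CBAP-reconstituted cells (right), with bars of 1 standard error and colours for calls at an adjusted p under 0.05. Shown are 7 lower calls and 1 higher call on the left, and 16 lower and 7 higher on the right.

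Of the 4 tested members grouped as carriers of citrate and dicarboxylates, 3 were lower and 0 higher in sh-CBAP cells. Of all tested genes, 8.70% were lower and 3.62% higher there. The grouping came from a list of genes and includes SLC25A35, whose substrate was not examined here. SLC25A35 was among the lower genes in sh-CBAP cells and was the higher one in CBAP-KO cells. In CBAP-KO cells 3 were lower and 1 higher, against 25.9% and 23.9% of all tested genes. Their median log2 change was -0.44 in the shRNA and -0.71 in the CRISPR set (-0.06 and 0.00 over all tested genes). SLC25A1 lies on the minus strand of chr22:19163094-19166252 (GRCh37). It was at 65.4 and 58.4 FPKM in sh-Ctrl and 38.9 and 45.3 FPKM in sh-CBAP cells. In the CRISPR set it was at 70.1 and 69.5 FPKM in CBAP-reconstituted and 44.9 and 41.5 FPKM in CBAP-KO cells. Both deficient conditions lay below their own control in every library. The log2 change was -0.55 (SE 0.0951, adjusted p = 0.0234) in the shRNA set and -0.68 (SE 0.0951, adjusted p = 0.00257) in the CRISPR set (limma with Benjamini-Hochberg adjustment, n = 2 per condition). As a ratio of mean FPKM, SLC25A1 was at 0.679 times its sh-Ctrl and 0.619 times its CBAP-reconstituted level. The 2 changes differed by 0.13 (adjusted p = 0.479, limma), which did not pass the threshold. The call in the shRNA set was lost without sh-Ctrl replicate 1 (log2 change -0.47, adjusted p = 0.0786, limma) and without any 1 library of the CRISPR set (adjusted p between 0.0505 and 0.0753, limma), and that in the CRISPR set was kept without any 1 library.

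SLC25A10, which exchanges malate or succinate for phosphate, was at 32.1 and 34.3 FPKM in sh-Ctrl and 25.4 and 26.5 FPKM in sh-CBAP cells. In the other set it was at 43.1 and 41.5 FPKM in CBAP-reconstituted and 25.7 and 24 FPKM in CBAP-KO cells. The groups did not overlap in either set, and the log2 change was -0.35 (SE 0.0623, adjusted p = 0.0263) in the shRNA and -0.74 (SE 0.0623, adjusted p = 0.000454) in the CRISPR set (limma). The shRNA call of SLC25A10 was lost without sh-Ctrl replicate 2 or any 1 CRISPR-set library. The gene span of SLC25A10 shares 8304 bp on the same strand with ENSG00000262660, a protein-coding gene with no values here. The assignment of reads between these 2 genes is therefore uncertain. SLC25A11, the oxoglutarate carrier of the malate-aspartate shuttle, was at 63.6 and 63.1 FPKM in sh-Ctrl and 55.4 and 57.5 FPKM in sh-CBAP cells, and at 99.0 and 101 FPKM in CBAP-reconstituted and 52.9 and 50.3 FPKM in CBAP-KO cells. Its deficient libraries lay below their controls in both sets. The log2 change was -0.94 (SE 0.0479, adjusted p = 8.4e-05) in the CRISPR set, where its CBAP-KO level was 0.517 times the CBAP-reconstituted level, and -0.16 (SE 0.0479, adjusted p = 0.0833) in the shRNA set, which did not pass the test. The gene span of SLC25A11, introns included, overlaps that of RNF167 by 46 bp on the opposite strand. Overlap of exons was not examined for this or the other neighbours named below. The assignment of reads in this stretch is therefore uncertain. RNF167 was at 42.5 and 46.2 FPKM in sh-Ctrl and 47.4 and 44.2 in sh-CBAP cells. In the CRISPR set it was at 88.7 and 86.4 FPKM in CBAP-reconstituted and 51.9 and 51.6 in CBAP-KO cells.

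SLC25A35 went in opposite directions. It was at 2.54 and 2.73 FPKM in sh-Ctrl and 1.54 and 1.48 FPKM in sh-CBAP cells. In the CRISPR set it was at 2.87 and 2.54 FPKM in CBAP-reconstituted and 8.01 and 6.78 FPKM in CBAP-KO cells. Its sh-CBAP libraries lay below sh-Ctrl and its CBAP-KO libraries above CBAP-reconstituted, with no overlap in either set. The log2 change was -0.53 (SE 0.101, adjusted p = 0.0287) in the shRNA set and 1.18 (SE 0.101, adjusted p = 0.000487) in the CRISPR set (limma), and the shRNA call was lost without either sh-Ctrl or either CBAP-reconstituted library. SLC25A35, on the minus strand of chr17:8191081-8198718 (GRCh37), shares 1439 bp with RANGRF on the opposite strand. RANGRF was at 47.6 and 52.8 FPKM in sh-Ctrl, 40.7 and 41.5 in sh-CBAP, 84.2 and 87.6 in CBAP-reconstituted and 42.4 and 36.5 in CBAP-KO cells. The strand setting of the quantification is not given in the sources used here, so the assignment of reads in the shared stretch is uncertain.

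**Figure D3:**
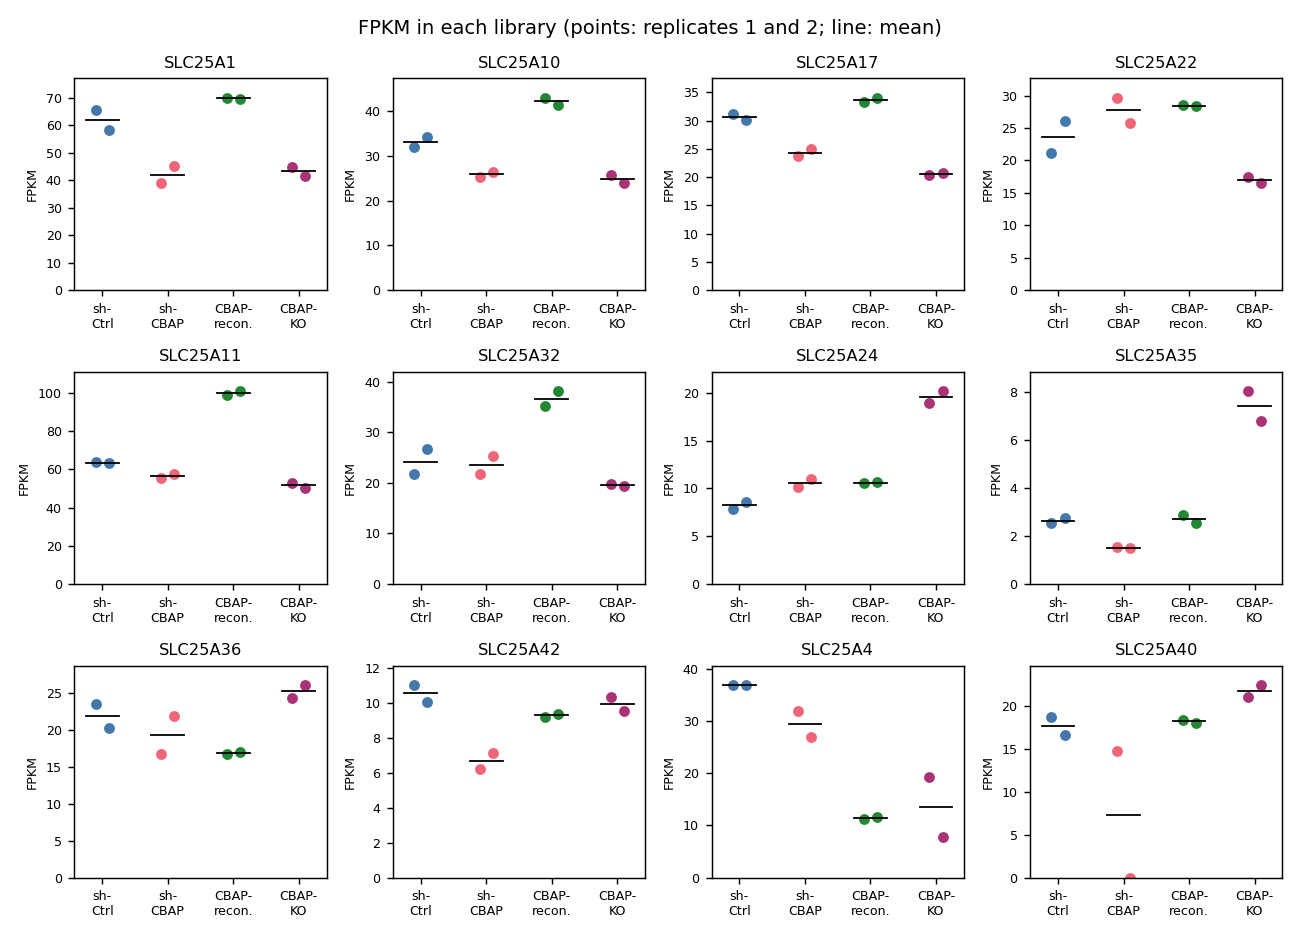
FPKM in each library for 12 SLC25 genes, with points for replicates 1 and 2 and a line at their mean; each panel has its own axis starting at 0. SLC25A1, SLC25A10 and SLC25A17 lie lower in both deficient conditions, SLC25A24 lies higher in both, and SLC25A40 has 1 sh-CBAP library listed at 0.

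Among the 7 amino acid carriers tested, 0 passed the test in sh-CBAP cells in either direction (median log2 change -0.08, against -0.06 over all tested genes), with 2 at an unadjusted p under 0.05 (limma). In CBAP-KO cells 4 were lower and 0 higher (median -0.59, against 0.00 over all tested genes). The lower calls were 57.1% of these carriers, against 25.9% of all tested genes, of which 23.9% were higher. SLC25A12 and SLC25A13 are paralogous aspartate-glutamate carriers. SLC25A12 was at 12.3 and 12.8 FPKM in sh-Ctrl and 11.6 and 12.1 FPKM in sh-CBAP cells, and at 15.1 and 15.5 FPKM in CBAP-reconstituted and 9.72 and 9.90 FPKM in CBAP-KO cells. SLC25A13 was at 3.12 and 3.62 FPKM in sh-Ctrl and 2.86 and 3.30 FPKM in sh-CBAP cells, and at 3.78 and 4.10 FPKM in CBAP-reconstituted and 2.05 and 2.07 FPKM in CBAP-KO cells. Both were lower in CBAP-KO libraries without overlap, with log2 changes of -0.59 (SE 0.0559, adjusted p = 0.000655) for SLC25A12 and -0.69 (SE 0.0979, adjusted p = 0.00272) for SLC25A13 (limma). The gene span of SLC25A12, introns included, overlaps that of HAT1 on the opposite strand over 69643 bp. Overlap of exons was not examined, so the assignment of reads there is uncertain. HAT1 was at 73.5 and 66.7 FPKM in sh-Ctrl and 65.4 and 78.7 in sh-CBAP cells. In the CRISPR set it was at 69.5 and 74.05 FPKM in CBAP-reconstituted and 89.0 and 94.2 in CBAP-KO cells.

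SLC25A15, the ornithine carrier of the urea cycle, was at 20.0 and 19.2 FPKM in sh-Ctrl and 17.3 and 17.9 FPKM in sh-CBAP cells. Levels in the CRISPR set were 22.9 and 23.2 FPKM in CBAP-reconstituted and 13.2 and 12.6 FPKM in CBAP-KO cells, a log2 change of -0.79 (SE 0.0552, adjusted p = 0.000250) (limma). The groups did not overlap in either set, and the shRNA value was -0.15 (SE 0.0552, adjusted p = 0.140). SLC25A22, which carries glutamate with a proton, was at 21.1 and 26.1 FPKM in sh-Ctrl and 29.7 and 25.8 FPKM in sh-CBAP cells, where the groups overlapped. CRISPR-set levels were 28.5 and 28.3 FPKM in CBAP-reconstituted and 17.4 and 16.4 FPKM in CBAP-KO cells, with every CBAP-KO library lower. Its log2 change was -0.71 (SE 0.116, adjusted p = 0.00444) in the CRISPR set, and its shRNA value had the opposite sign (0.23, SE 0.116, adjusted p = 0.254, limma). SLC25A29, a carrier of basic amino acids, SLC25A38, the glycine carrier of heme synthesis, and SLC25A44, a carrier of branched-chain amino acids, passed the test in neither set, with log2 changes between -0.24 and 0.11.

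The adenine nucleotide translocases export ATP made in the matrix. SLC25A5 was at 415 and 394 FPKM in sh-Ctrl and 362 and 385 FPKM in sh-CBAP cells, and at 429.6 and 436 FPKM in CBAP-reconstituted and 316 and 329 FPKM in CBAP-KO cells. SLC25A6 was at 299 and 283 FPKM in sh-Ctrl and 273 and 252 FPKM in sh-CBAP cells, and at 352 and 344 FPKM in CBAP-reconstituted and 253 and 261 FPKM in CBAP-KO cells. Both were lower in CBAP-KO libraries, with log2 changes of -0.42 (SE 0.0547, adjusted p = 0.00195) for SLC25A5 and -0.43 (SE 0.0595, adjusted p = 0.00239) for SLC25A6 (limma), and neither passed the test in sh-CBAP cells. Reads of SLC25A5 and SLC25A6 can fall on near-identical copies elsewhere in the genome, so their values are uncertain, and both calls were lost with quantile normalization of the libraries.

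SLC25A4, the translocase best known from heart and skeletal muscle, was at 36.8 and 36.8 FPKM in sh-Ctrl and 31.9 and 26.8 FPKM in sh-CBAP cells. Its CRISPR-set values were 11.2 and 11.7 FPKM in CBAP-reconstituted and 19.2 and 7.74 FPKM in CBAP-KO cells. The CBAP-KO libraries lay on either side of the CBAP-reconstituted pair, and the log2 change was 0.10 (SE 0.369, adjusted p = 0.859) (limma). It turned to -0.51 (adjusted p = 0.0294, limma) without CBAP-KO replicate 1 and to 0.70 (adjusted p = 0.0124, limma) without CBAP-KO replicate 2, so its direction rested on 1 library. The summed FPKM of the 3 translocases was 751 and 713 in sh-Ctrl, 668 and 664 in sh-CBAP, 793 and 792 in CBAP-reconstituted, and 589 and 598 in CBAP-KO cells. SLC25A5 contributed between 53.7 and 58.0% of that sum in every library. SLC25A4 contributed 4.90 and 5.17% in sh-Ctrl, 4.78 and 4.05% in sh-CBAP, 1.41 and 1.48% in CBAP-reconstituted, and 3.27 and 1.29% in CBAP-KO cells.

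SLC25A3 was at 209 and 189 FPKM in sh-Ctrl and 209 and 214 FPKM in sh-CBAP cells, and at 260.5 and 249 FPKM in CBAP-reconstituted and 192 and 194 FPKM in CBAP-KO cells. It was lower in both CBAP-KO libraries (log2 change -0.40, SE 0.0619, adjusted p = 0.00386, limma), a call lost with quantile normalization, and in the shRNA set the groups overlapped at a change of 0.09 (SE 0.0619, adjusted p = 0.387). SLC25A23, SLC25A24 and SLC25A25 are calcium-regulated paralogues that exchange ATP-Mg for phosphate and so set the adenine nucleotide content of the matrix.

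SLC25A24, on the minus strand of chr1:108676665-108743471 (GRCh37), was at 7.82 and 8.62 FPKM in sh-Ctrl and 10.1 and 11.0 FPKM in sh-CBAP cells. The CRISPR set gave 10.5 and 10.7 FPKM in CBAP-reconstituted and 19 and 20.2 FPKM in CBAP-KO cells. It was higher in the deficient libraries of both sets without overlap. The log2 change was 0.33 (SE 0.0738, adjusted p = 0.0451) in the shRNA set and 0.83 (SE 0.0738, adjusted p = 0.000551) in the CRISPR set (limma), where the level was 1.85 times that of CBAP-reconstituted cells. The CRISPR call was kept in each of the 8 fits without 1 library, and the shRNA call in 1 of them, that without sh-CBAP replicate 1. SLC25A25 was at 12.6 and 13.6 FPKM in sh-Ctrl and 9.96 and 9.82 FPKM in sh-CBAP cells, and at 18.8 and 19.6 FPKM in CBAP-reconstituted and 17.3 and 14.9 FPKM in CBAP-KO cells. It was called lower in sh-CBAP cells (log2 change -0.37, SE 0.0845, adjusted p = 0.0458, limma), a call lost without any 1 of the 8 libraries, and its CRISPR value of -0.25 (SE 0.0845, adjusted p = 0.0534) did not pass. SLC25A23 passed in neither set, with values of -0.33 (SE 0.0837, adjusted p = 0.0587) in the shRNA set and -0.01 (SE 0.0837, adjusted p = 0.968) in the CRISPR set (limma).

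Within the summed FPKM of these 3 paralogues, the part taken by SLC25A24 was larger in the deficient libraries. It made up 20.5 and 21.6% in sh-Ctrl and 30.9 and 30.7% in sh-CBAP libraries, against 23.6 and 23.4% in CBAP-reconstituted and 36.6 and 40.5% in CBAP-KO libraries. The groups did not overlap in either set, and the share was not tested.

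Of the 8 cofactor and nucleotide carriers, 3 were lower and 0 higher in sh-CBAP cells, and 5 were lower and 2 higher in CBAP-KO cells. The lower calls were 37.5% and 62.5% of this group, against 8.70% and 25.9% of all tested genes. The higher calls in CBAP-KO cells were 25%, near the 23.9% of all tested genes. Their median log2 change was -0.15 in the shRNA and -0.34 in the CRISPR set, against -0.06 and 0.00 over all tested genes. SLC25A17, a carrier of coenzyme A, FAD and NAD that resides in peroxisomes, was at 31.1 and 30.1 FPKM in sh-Ctrl and 23.7 and 24.9 FPKM in sh-CBAP cells, and at 33.2 and 34.1 FPKM in CBAP-reconstituted and 20.4 and 20.7 FPKM in CBAP-KO cells. The groups stood apart in both sets. The log2 changes of SLC25A17 were -0.32 (SE 0.0513, adjusted p = 0.0199) in the shRNA set and -0.69 (SE 0.0513, adjusted p = 0.000311) in the CRISPR set (limma). The shRNA call of SLC25A17 was lost without sh-Ctrl replicate 1 or any 1 CRISPR-set library.

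SLC25A42, a carrier of coenzyme A, was at 11.0 and 10.1 FPKM in sh-Ctrl and 6.21 and 7.16 FPKM in sh-CBAP cells. Levels in the CRISPR set were 9.22 and 9.39 FPKM in CBAP-reconstituted and 10.4 and 9.53 FPKM in CBAP-KO cells. Among the SLC25 members, it had the most negative called change of the shRNA set, -0.59 (SE 0.0884, adjusted p = 0.0173), and a value of 0.09 (SE 0.0884, adjusted p = 0.455) in the CRISPR set (limma). The shRNA call was lost without sh-Ctrl replicate 1 or either CBAP-reconstituted library. SLC25A32, linked to import of folate and FAD, was at 21.7 and 26.7 FPKM in sh-Ctrl and 21.7 and 25.2 FPKM in sh-CBAP cells, and at 35.1 and 38.0 FPKM in CBAP-reconstituted and 19.8 and 19.3 FPKM in CBAP-KO cells. Its groups overlapped in the shRNA set and stood apart in the CRISPR set, with log2 changes of -0.04 (SE 0.118, adjusted p = 0.864) and -0.87 (SE 0.118, adjusted p = 0.00236) (limma). The gene span of SLC25A32 shares 476 bp with that of DCAF13 on the opposite strand, and the assignment of reads there is uncertain. DCAF13 was at 44.9 and 48.2 FPKM in sh-Ctrl and 43.5 and 58.65 in sh-CBAP cells. In the CRISPR set it was at 67.0 and 70.5 FPKM in CBAP-reconstituted and 35.7 and 34.4 in CBAP-KO cells. SLC25A32 also overlaps ENSG00000285982, a protein-coding gene with no values here, by 16532 bp on the same strand. SLC25A16, linked to coenzyme A in mitochondria, was at 6.49 and 6.24 FPKM in sh-Ctrl and 5.13 and 6.58 FPKM in sh-CBAP cells, and at 6.07 and 6.12 FPKM in CBAP-reconstituted and 10.1 and 7.74 FPKM in CBAP-KO cells. It was called higher in CBAP-KO cells (0.47, SE 0.148, adjusted p = 0.0419, limma), a call lost without either sh-Ctrl library, either CBAP-reconstituted library or CBAP-KO replicate 1.

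SLC25A33 and SLC25A36 carry pyrimidine nucleotides. SLC25A33 was at 9.31 and 11.0 FPKM in sh-Ctrl and 9.58 and 10.1 FPKM in sh-CBAP cells, and at 8.50 and 8.32 FPKM in CBAP-reconstituted and 6.64 and 6.39 FPKM in CBAP-KO cells. SLC25A36 was at 23.5 and 20.2 FPKM in sh-Ctrl and 16.7 and 21.9 FPKM in sh-CBAP cells, and at 16.8 and 16.9 FPKM in CBAP-reconstituted and 24.3 and 26.0 FPKM in CBAP-KO cells. In CBAP-KO cells SLC25A33 was lower (log2 change -0.33, SE 0.0879, adjusted p = 0.0261, limma) and SLC25A36 higher (0.55, SE 0.137, adjusted p = 0.0199, limma), with no overlap for either gene. Both calls were lost without any 1 library of the CRISPR set. The share of SLC25A36 in their summed FPKM was 71.6 and 64.8% in sh-Ctrl, 63.5 and 68.4% in sh-CBAP, 66.4 and 67.1% in CBAP-reconstituted, and 78.6 and 80.3% in CBAP-KO cells. The share was therefore higher in CBAP-KO libraries and overlapped between groups in the shRNA set. SLC25A26, which imports S-adenosylmethionine, was lower in CBAP-KO cells (-0.36, SE 0.0775, adjusted p = 0.0121, limma), a call lost without CBAP-reconstituted replicate 2 or CBAP-KO replicate 2. The gene span of SLC25A26, introns included, shares 9320 bp with that of LRIG1 on the opposite strand, and the assignment of reads there is uncertain.

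**Figure D4:**
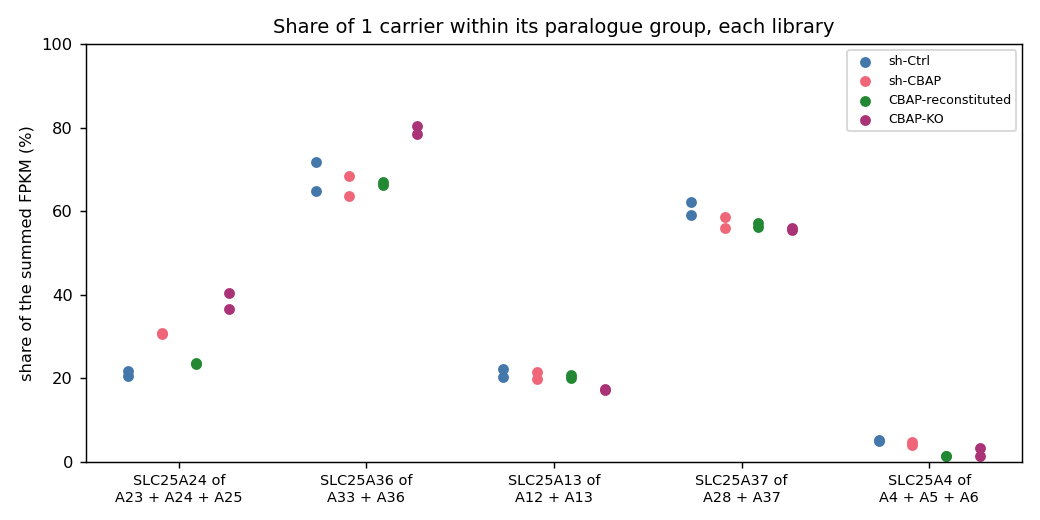
Share (%) of 1 carrier in the summed FPKM of its paralogue group, 1 point per library, for 5 groups and the 4 conditions. The share of SLC25A24 is 30.7 to 40.5% in the deficient and 20.5 to 23.6% in the CBAP-expressing libraries, and that of SLC25A36 is highest in CBAP-KO libraries.

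SLC25A28 and SLC25A37 are the mitoferrins, which import iron for heme and iron-sulfur clusters. SLC25A28 was at 15.4 and 14.7 FPKM in sh-Ctrl and 11.4 and 17.1 FPKM in sh-CBAP cells, and at 15.7 and 16.7 FPKM in CBAP-reconstituted and 22.3 and 23.4 FPKM in CBAP-KO cells. SLC25A37 was at 22.1 and 24.2 FPKM in sh-Ctrl and 16.0 and 21.7 FPKM in sh-CBAP cells, and at 20.9 and 21.3 FPKM in CBAP-reconstituted and 27.8 and 29.7 FPKM in CBAP-KO cells. Both lay above CBAP-reconstituted in CBAP-KO libraries, but SLC25A37 passed the test (0.43, SE 0.140, adjusted p = 0.0475, limma) and SLC25A28 did not (0.47, SE 0.172, adjusted p = 0.0664, limma). The SLC25A37 call was lost without any 1 library of the sh-Ctrl, CBAP-reconstituted or CBAP-KO conditions. The share of SLC25A37 in the sum of both was between 55.6 and 62.2% in every library.

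SLC25A39 and SLC25A40 carry glutathione into mitochondria. SLC25A39 was at 110.3 and 110.2 FPKM in sh-Ctrl and 91.9 and 97.6 FPKM in sh-CBAP cells, and at 104 and 108 FPKM in CBAP-reconstituted and 101 and 87.0 FPKM in CBAP-KO cells. SLC25A40 was at 18.8 and 16.7 FPKM in sh-Ctrl and 14.7 and 0 FPKM in sh-CBAP cells, and at 18.4 and 18.0 FPKM in CBAP-reconstituted and 21.1 and 22.4 FPKM in CBAP-KO cells. Neither passed the test in either set. The shRNA value of SLC25A40 rested on the 0 listed for sh-CBAP replicate 2, and without that library its log2 change was -0.25 (adjusted p = 0.109, limma). DBF4, which overlaps SLC25A40 by 145 bp on the opposite strand, was also listed at 0 in that library and was at 13.3 FPKM in the other sh-CBAP library.

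SLC25A14, SLC25A27 and SLC25A30 are relatives of the uncoupling proteins. SLC25A14 was at 9.41 and 9.33 FPKM in sh-Ctrl and 11.1 and 11.0 FPKM in sh-CBAP cells, and at 13.1 and 13.2 FPKM in CBAP-reconstituted and 14.9 and 17.5 FPKM in CBAP-KO cells. It was above the control in every deficient library, and passed the test in CBAP-KO cells (0.28, SE 0.0803, adjusted p = 0.0326, limma) but not in sh-CBAP cells (0.21, SE 0.0803, adjusted p = 0.145). The CBAP-KO call was lost without either sh-Ctrl library, either CBAP-reconstituted library or CBAP-KO replicate 2. SLC25A27 was at 1.46 and 0.734 FPKM in sh-Ctrl and 0.553 and 0.756 FPKM in sh-CBAP cells, and at 2.13 and 2.25 FPKM in CBAP-reconstituted and 0.928 and 0.801 FPKM in CBAP-KO cells, and was called lower in CBAP-KO cells (-0.77, SE 0.179, adjusted p = 0.0154, limma), a call lost without either CBAP-reconstituted library or CBAP-KO replicate 2. SLC25A30 was at 4.71 and 4.87 FPKM in sh-Ctrl and 3.14 and 3.79 FPKM in sh-CBAP cells, and at 9.07 and 8.98 FPKM in CBAP-reconstituted and 8.45 and 8.81 FPKM in CBAP-KO cells. It was called lower in sh-CBAP cells (-0.38, SE 0.0870, adjusted p = 0.0464, limma), a call kept without either sh-CBAP library and lost without any 1 of the other 6. The gene span of SLC25A30, introns included, shares 24660 bp with that of the antisense gene TPT1-AS1, so the assignment of reads there is uncertain too.

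SLC25A46, an outer membrane protein linked to mitochondrial shape, was at 36.5 and 35.1 FPKM in sh-Ctrl and 32.9 and 36.6 FPKM in sh-CBAP cells, and at 41.0 and 43.2 FPKM in CBAP-reconstituted and 54.3 and 52.8 FPKM in CBAP-KO cells. It was higher in CBAP-KO cells (0.34, SE 0.0675, adjusted p = 0.00906, limma), a call lost without CBAP-reconstituted replicate 1 or CBAP-KO replicate 1, and its groups overlapped in the shRNA set. SLC25A43 was at 3.10 and 3.27 FPKM in sh-Ctrl and 2.25 and 3.31 FPKM in sh-CBAP cells. It was at 1.99 and 1.98 FPKM in CBAP-reconstituted cells and was listed at 0 in both CBAP-KO libraries. No fold is given against these zeros, which may be failed estimates, and the size of its fitted change rests on the pseudocount. SLC25A51, which imports NAD, SLC25A45 and SLC25A20, the carnitine-acylcarnitine carrier of fatty acid oxidation, passed the test in neither set, with log2 changes between -0.32 and 0.29.

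For 18 of the 38 tested members (47.4%) the 2 sets differed in their change, against 33.8% of all tested genes (limma on the difference of the 2 changes, adjusted p under 0.05). For 12 of these 18 members the shRNA change was the higher one, as it was for 45.9% of all genes that differed. The 12 include 10 members lower in CBAP-KO cells and not called in the shRNA set. The share of all tested genes with that pattern was not counted. Among the members that differed with opposite signs in the sets, SLC25A22 and SLC25A3 fell in CBAP-KO cells, and SLC25A35, SLC25A36, SLC25A37 and SLC25A46 rose there. SLC25A42 fell in sh-CBAP cells and did not pass the test in CBAP-KO cells. The count was 6 without CBAP-reconstituted replicate 1, 7 without CBAP-reconstituted replicate 2, 11 without CBAP-KO replicate 1 and 10 without CBAP-KO replicate 2. For SLC25A1, called lower in both sets, the difference did not pass the test, and for SLC25A10 and SLC25A17 it did.

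Family members under other symbols were counted apart. UCP2, an uncoupling protein, was at 62.9 and 59.9 FPKM in sh-Ctrl and 85.8 and 85.5 FPKM in sh-CBAP cells, and at 69.4 and 65.5 FPKM in CBAP-reconstituted and 53.8 and 57.8 FPKM in CBAP-KO cells. It was higher in sh-CBAP (log2 change 0.47, SE 0.059, adjusted p = 0.0107, limma) and lower in CBAP-KO cells (-0.27, SE 0.059, adjusted p = 0.0125, limma). MTCH2, an outer membrane protein that inserts other proteins, was lower in CBAP-KO cells (-1.12, SE 0.052, adjusted p = 6.2e-05, limma) and at -0.06 (adjusted p = 0.502) in the shRNA set. MTCH1, its paralogue, passed the test in neither set.

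Carriers are imported by the TOM receptors, the small TIM chaperones and the TIM22 complex. Of the 15 tested genes of this import route, 1 was lower and 0 higher in sh-CBAP cells, and 11 were lower and 0 higher in CBAP-KO cells, with median log2 changes of -0.03 and -0.53 (-0.06 and 0.00 over all tested genes). The lower calls were 6.67% of the route in sh-CBAP cells, near the 8.70% of all tested genes, and 73.3% in CBAP-KO cells, against 25.9%. Higher calls were 3.62% and 23.9% of all tested genes. TIMM8B, a small chaperone, was lower in CBAP-KO cells (-1.11, adjusted p = 0.000128, limma), as was TOMM40, the pore of the outer membrane (-0.90, adjusted p = 0.00155, limma). The 1 lower gene in sh-CBAP cells was C19orf52, an older symbol of the TIM22 subunit TIMM29 (-0.69, adjusted p = 0.0136, limma). The summed FPKM of the route was 767 to 843 in sh-Ctrl, 777 to 844 in sh-CBAP, 976 to 998 in CBAP-reconstituted and 631 to 651 in CBAP-KO cells.

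The citrate that SLC25A1 exports is cleaved by ACLY and used by ACACA and FASN for fatty acid synthesis. Of the 13 tested enzymes on this route, 4 were lower and 0 higher in sh-CBAP cells, and 9 were lower and 1 higher in CBAP-KO cells, with median log2 changes of -0.26 and -0.41 (-0.06 and 0.00 over all tested genes). The lower calls were 30.8% and 69.2% of these enzymes, against 8.70% and 25.9% of all tested genes, and the higher call in CBAP-KO cells was 7.69%, against 23.9%. FASN had a log2 change of -0.70 in the shRNA set (SE 0.119, adjusted p = 0.0228, limma) and of -0.88 in the CRISPR set (SE 0.119, adjusted p = 0.00225, limma). ACLY had changes of -0.51 (adjusted p = 0.00307, limma) and -0.19 (adjusted p = 0.0123, limma). The higher enzyme in CBAP-KO cells was IDH2, a mitochondrial isocitrate dehydrogenase (0.35, adjusted p = 0.0275, limma), which was lower in sh-CBAP cells (-0.47, adjusted p = 0.0334, limma). It was not examined whether the shRNA-set calls of FASN, ACLY, IDH2, UCP2 and C19orf52 were kept in the alternative fits. Among 19 other mitochondrial transporters, 2 were lower and 0 higher in sh-CBAP, and 8 were lower and 1 higher in CBAP-KO cells, with median changes of -0.06 and -0.21 (-0.06 and 0.00 over all tested genes). The lower calls were 10.5% of them in sh-CBAP cells, near the 8.70% of all tested genes, and 42.1% in CBAP-KO cells, against 25.9%. The higher call in CBAP-KO cells was 5.26%, against 23.9%.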

How the data were processed

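The labels name total RNA of Jurkat cells. The authors used TopHat to align paired-end reads to hg19 and the cuffdiff module of Cufflinks to estimate FPKM, after CASAVA 1.8 per the labels, and deposited 1 table with an FPKM value per gene and library. The Cufflinks version, the gene annotation, the strand setting and whether the sets were scaled together are not given in the sources used here. No depth per library is known, so counting intervals were left out. All precision comes from the spread between the 2 libraries of a condition, pooled over the 4 conditions and moderated across genes.

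Groups were taken from the sample labels. The deposited FPKM values were transformed to log2(FPKM + 1), a scale that understates changes of low genes, and a gene was tested if its mean over the libraries reached 1 FPKM (11427 genes). Limma 3.58.1 in R 4.3.3 (linear model with a mean per condition over all 8 libraries, empirical Bayes with trend, checked on simulated data) gave the change in each set and the difference of the changes (shRNA minus CRISPR). The p-values were adjusted by Benjamini-Hochberg over every tested gene, with a threshold of 0.05. Alternatives changed the scaling, the pseudocount, the filter and the trend, fitted each set alone, added a replicate block, left out genes with a listed 0, and left out each library in turn. Lists are given by counts and medians beside all tested genes. The alternatives and the fits without 1 library were followed gene by gene for the members only, not for the other listed genes.

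The members and gene lists were chosen with earlier results of these data known. The members given in every library were SLC25A1, the translocases, paralogue pairs of 1 substrate, members called in both sets, the 5 largest called changes per direction and set, members whose changes differed with opposite signs, and members with a listed 0. SLC25A14 was added after its values were seen. A few items fixed by these rules are not reported here, though the counts include them. Gene positions came from GENCODE 44 lifted to GRCh37, and 34 of the 40 members matched a RefSeq promoter of GRCh38.p14 by symbol. Python 3.11.15, numpy 2.4.6, pandas 2.3.3 and matplotlib 3.10.9 were used.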

Additional observations from a re-analysis of the deposited data

Results flagged for a closer look

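For 18 SLC25 genes the change in the shRNA set differed from that in the CRISPR set in limma's test of the difference at a Benjamini-Hochberg adjusted p under 0.05. The difference is given as the log2 change in sh-CBAP against sh-Ctrl minus that in CBAP-KO against CBAP-reconstituted cells. In the group of citrate and dicarboxylate carriers it was 0.40 for SLC25A10 and 0.78 for SLC25A11. It was -1.71 for SLC25A35, whose substrate was not examined here. For the amino acid carriers it was 0.52 for SLC25A12, 0.59 for SLC25A13, 0.64 for SLC25A15 and 0.94 for SLC25A22. The translocases gave 0.31 for SLC25A5 and 0.29 for SLC25A6. Of the phosphate carriers, SLC25A3 differed by 0.48 and SLC25A24 by -0.50. Cofactor and nucleotide carriers differed by 0.36 for SLC25A17, 0.83 for SLC25A32, -0.73 for SLC25A36 and -0.68 for SLC25A42. The mitoferrin SLC25A37 differed by -0.72 and the outer membrane protein SLC25A46 by -0.38. The value of SLC25A43 was 1.42, a size that rests on the pseudocount because both CBAP-KO libraries were listed at 0. The method of CBAP loss, the kind of control cells and the set cannot be told apart. Of the 18 differences, 5 (SLC25A11, SLC25A12, SLC25A15, SLC25A35 and SLC25A43) were kept in every alternative that tested them and without any 1 library.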

How the results depend on the processing

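With the 4 libraries of a set fitted alone, the members called in sh-CBAP cells went from 1 higher and 8 lower to 0 and 0 (13 at an unadjusted p under 0.05, limma), and over all genes from 414 higher and 994 lower to 58 and 17. With the replicate block they were 0 and 0 (15 unadjusted, limma), with 49 and 22 over all genes. Under the block the higher calls in CBAP-KO cells went from 7 to 4 and the members whose change differed from 18 to 11. The replicate numbers were not taken to pair the libraries, since the deviations of same-numbered libraries correlated at 0.146 for sh-Ctrl and sh-CBAP and at 0.024 for CBAP-reconstituted and CBAP-KO, over 2 pairs each. Quantile normalization moved the median change of the members in the shRNA set from -0.15 to -0.071. It also moved the higher share of all calls in that set from 29.4 to 50.4%, and upper-quartile scaling moved it to 44%, with 1 member called higher and 9 lower under both. Leaving out 1 library gave 0 to 1 higher and 0 to 12 lower members in sh-CBAP, 2 to 9 higher and 14 to 19 lower in CBAP-KO cells, and 6 to 24 whose change differed. The number of calls over all tested genes also changed with the library left out, so these ranges are not particular to the members. The median of the members ranged from -0.22 to -0.10 in the shRNA and from -0.32 to -0.12 in the CRISPR set. The log2 change of SLC25A4 in the CRISPR set reversed from 0.10 to -0.51 without CBAP-KO replicate 1 and was 0.70 without CBAP-KO replicate 2. For single genes, 897 values stayed on their side of the threshold under the other alternatives, of which 878 kept their direction and 19, past the threshold in neither fit, changed sign. A call was lost by 52 and gained by 21, all with the direction kept. Without 1 library, 753 stayed on their side, of which 727 kept their direction and 26, past the threshold in neither fit, changed sign, 130 lost a call and 28 gained one with the direction kept, and 1 (SLC25A4) changed sign with a call. The cause of these changes was not tested. In the CRISPR set, 15 of 24 calls were kept in every alternative that tested them. Quantile normalization lost SLC25A3, SLC25A5, SLC25A6, SLC25A14, SLC25A16 and SLC25A27, and the replicate block SLC25A14, SLC25A16, SLC25A27 and SLC25A36. The set alone lost SLC25A14 and SLC25A16, upper-quartile scaling SLC25A26, and no filter SLC25A16 and SLC25A37. SLC25A37 was also lost with a pseudocount of 0.1 or no trend. Of the calls, 13 of 24 in the CRISPR set and 0 of 9 in the shRNA set were kept throughout. The depth is unknown, so it could not be checked whether the closeness of the CBAP-reconstituted pair (median absolute log2 difference of the members 0.033, against 0.154 for sh-CBAP) is within sampling noise.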
